A study of Mus musculus with 22 samples.

Results

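Neurexins and neuroligins are cell-surface proteins that meet across the synaptic cleft, neurexins mainly from the presynaptic side and neuroligins from the postsynaptic side. Neuroligin-1 is found mainly at excitatory synapses and neuroligin-2 mainly at inhibitory ones, where it binds gephyrin, the scaffold that holds receptors for GABA and glycine in place. Both families are widely expressed by neurons of the brain and help to set the properties of the synapses they join. The genes followed here were 6 of the 24421 genes in each of 2 count tables, namely the neuroligin genes Nlgn1, Nlgn2 and Nlgn3, the neurexin genes Nrxn2 and Nrxn3, and the gephyrin gene Gphn. They were chosen by name with the values of the female rank contrast in view, so the levels of dominant against submissive females are given as a description and support nothing, and calls in that contrast are counted without being read. All 6 were listed in both tables and passed the filter on low counts in both.

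Total RNA of the right brain hemisphere was sequenced from C57BL/6JOlaHsd mice, an inbred laboratory strain, which were housed in groups and received no treatment besides handling and ranking. Rank was assessed at 10 to 12 weeks of age with the tube test, in which mice of a cage meet in a narrow tube and the one that is pushed back loses. The 4 groups were dominant males (n = 7), submissive males (n = 7), dominant females (n = 4) and submissive females (n = 4), and by the library names a dominant and a submissive mouse of the same number came from the same cage. Cages are numbered here as their mice. Female cages 3 and 4 carry the names Gr1 and Gr2 in place of a cage number. Females of intermediate rank were regrouped and ranked again in the study, and which of the libraries come from regrouped mice was not determined here. Males and females lay in different tables whose library names carry different prefixes, so sex and table cannot be told apart. What the prefixes stand for is not given in the labels. Counted reads ranged from 12403943 to 15805170 per male library and from 14967458 to 16488762 per female library. CPM below are counts relative to the library size, scaled with TMM over all 22 libraries.

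Marker genes were used to check the tissue. All 10 neuronal markers were detected, and their summed level was 5338 ± 242 CPM (SD, n = 14) over males and 5911 ± 78.1 CPM (SD, n = 8) over females, with Snap25 the most abundant. Much of this gap lay in Snap25, with means of 1982 and 1938 CPM in dominant and submissive females and 1426 and 1437 CPM in dominant and submissive males. Nefl ran the other way (492 and 507.4 against 567.8 and 554.1 CPM). The median log2 difference of females minus males over the 10 markers was 0.034. The 7 oligodendrocyte markers, led by Mbp, summed to 5750 ± 308 CPM (SD, n = 14) over males and 5310 ± 346 CPM (SD, n = 8) over females. Sums of the 3 precursor markers, led by Pdgfra, were 172.8 to 196.5 CPM in males and 149.3 to 169.6 CPM in females, without overlap. Pdgfra had means of 87.16 and 90.17 CPM in dominant and submissive females and 104.7 and 104.9 CPM in dominant and submissive males. Cspg4 was lower in females too (12.55 and 12.07 against 18.01 and 19.92 CPM). Olig1 did not follow (56.49 and 61.67 against 60.85 and 60.05 CPM). The 7 astrocyte markers, led by Aldoc, summed to 3088 ± 233 CPM (SD, n = 8) in male cages 1 to 4, 3358 ± 89.8 CPM (SD, n = 6) in male cages 5 to 7 and 3152 ± 152 CPM (SD, n = 8) over females. Neuronal markers too were lower in male cages 1 to 4, at 5207 ± 187 CPM (SD, n = 8) against 5512 ± 198 CPM (SD, n = 6), as were those of oligodendrocytes, at 5604 ± 225 CPM against 5945 ± 309 CPM. So were those of choroid plexus (662 ± 139 against 807.2 ± 155 CPM) and endothelium (179.4 ± 9.44 against 191.9 ± 6.93 CPM). Markers of Purkinje cells (2576 ± 491 against 2708 ± 219 CPM) and microglia (258 ± 14.5 against 267.8 ± 8.76 CPM) were lower there too. Granule cell markers ran the other way (536.9 ± 220 against 485.7 ± 116 CPM), and those of oligodendrocyte precursors hardly differed (184.5 ± 8.55 against 184 ± 9.09 CPM). Cages 1 to 4 include dominant male 1, with the lowest granule and Purkinje cell sums of the males (41.7 and 1491 CPM). Marker sums by rank are given as a description only. The 5 choroid plexus markers, led by Ttr, summed to 693.6 to 857 CPM in dominant and 664.2 to 1012 CPM in submissive females, with overlap, 0 of 5 log2 differences above 0 and a median of -0.297 against -0.002 over all genes. In males the sums ran from 587 to 1069 CPM (dominant) and from 458.3 to 848 CPM (submissive), with overlap, 5 of 5 above 0 and a median of 0.079 against -0.002. For the granule cell and Purkinje cell markers 0 of 5 and 0 of 5 were above 0 in males, with medians of -0.174 and -0.217. These medians include dominant male 1, the lowest male for both lists, with a granule cell sum of 41.7 CPM. In the other dominant males that sum ran from 286.4 to 704.6 CPM, on both sides of the 397.4 to 650.2 CPM in submissive males. In females 1 of 5 and 3 of 5 were above 0, with medians of -0.067 and 0.032. Of 5 red cell markers 4, the haemoglobin genes, were at 0 in all libraries. As the treatment of reads with several matches is not given, these zeros are not read as a lack of blood RNA. The remaining marker, Alas2, ran from 3.85 to 5.98 CPM across dominant females and from 2.58 to 3.78 CPM across submissive ones. In males it ran from 4.812 to 9.415 CPM. The part of these cell types in the levels of the 6 genes was not tested.

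Dominant male 1 stood apart in cerebellar RNA. Its 5 granule cell markers summed to 41.7 CPM, against 286.4 to 704.6 CPM in the other males, and Cbln3, the most abundant of them over all libraries, was at 1.14 CPM. Its 5 Purkinje cell markers, led by Itpr1, summed to 1491 CPM, against 2260 CPM or more in the other males. In submissive female 3 the 5 pituitary markers summed to 22.7 CPM, of which Pomc made up 6.54 CPM, against 3.41 CPM or less elsewhere. In a bulk hemisphere, fewer cells of a type and less RNA per cell cannot be told apart.

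**Figure D1:**
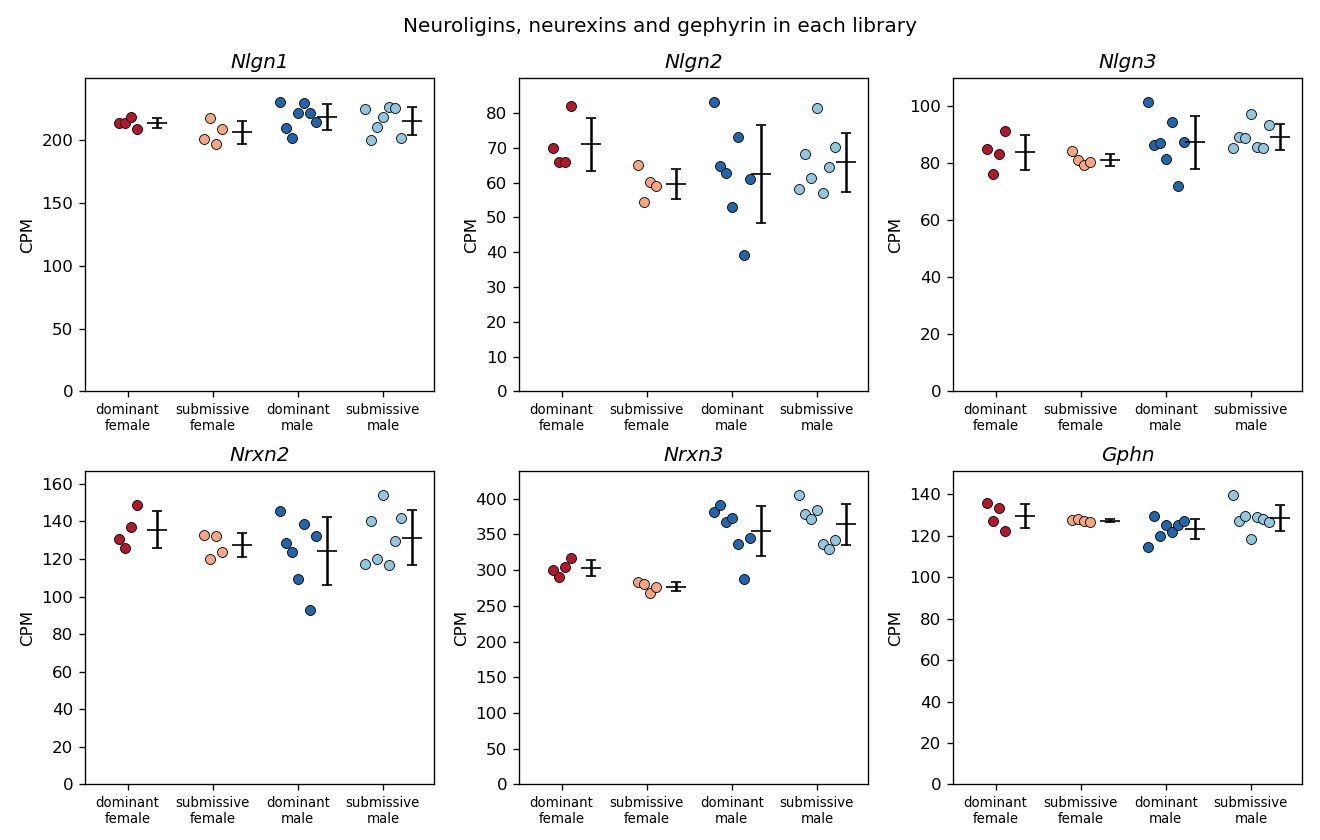
Level of each of the 6 genes in every library (points, CPM, axis from 0) by group, with the group mean and SD beside the points (4 females or 7 males per group). Nlgn2 spans 39.1 to 83.3 CPM, Gphn stays between 114.7 and 139.9 CPM, and Nrxn3 lies above the female range of 268.4 to 316.5 CPM in every male except dominant male 6.

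The 6 genes differ in size and base composition. In mm10, Nlgn1 spans chr3:25431841-26331909 on the minus strand with 5673 exon bases, and Nlgn2 spans chr11:69823123-69834849 on the minus strand with 5002. Nlgn3 lies at chrX:101299179-101321350 (3883 exon bases), Nrxn2 at chr19:6418738-6533217 (6660), Nrxn3 at chr12:88794504-90334933 (9442) and Gphn at chr12:78226655-78684769 (3399), all on the plus strand. No exon base of the 6 genes is shared with another gene of the count tables on either strand. The GC content of the transcript is 62.4% for Nrxn2 and 60.7% for Nlgn2, at the 98.5th and 96.7th percentile of the genes kept by the filter. Nlgn1, at 38.9%, lies at the 3.5th percentile, and Nlgn3 (49.3%), Gphn (48.1%) and Nrxn3 (47.5%) lie nearer the middle. Nrxn3 is the longest of the 6, at the 97.4th percentile of exon length.

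Per kb of exon, the levels fell into an order that was clear at its lower end. Over all 22 libraries Nlgn1 had a level of 37.7 ± 1.77 CPM per kb (SD, n = 22), Gphn of 37.3 ± 1.61 and Nrxn3 of 35.4 ± 4.57. Nlgn1 exceeded Gphn in 12 of the 22 libraries and Gphn exceeded Nrxn3 in 14 of 22, but the place of Nrxn3 depended on the table. In females Nrxn3 had 28.4 to 33.5 CPM per kb, below all values of Gphn (36.0 to 39.9) and of Nlgn1 (34.7 to 38.4). In males it had 38.08 ± 3.29 CPM per kb (SD, n = 14), with a mean of 40.4 in cages 1 to 4 and 34.9 in cages 5 to 7, where Gphn had 36.9 and 37.2. Next came Nlgn3 with 22.2 ± 1.74 CPM per kb, Nrxn2 with 19.4 ± 2.07 and Nlgn2 with 12.9 ± 2.02. Nrxn3 exceeded Nlgn3, Nlgn3 exceeded Nrxn2 and Nrxn2 exceeded Nlgn2 in all 22 libraries. The level of Nlgn1 per kb was 3.00 ± 0.583 times that of Nlgn2 (SD, n = 22), from 2.24 times in dominant female 4 to 4.99 times in dominant male 6.

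Of the postsynaptic genes, Nlgn2 had the widest spread. It had 70.1, 66.0, 65.8 and 82.0 CPM in dominant females 1 to 4 and 65.1, 54.5, 60.1 and 59.0 CPM in submissive females 1 to 4. Dominant female 4 was the highest of the 8, and every dominant female lay above every submissive one, though dominant female 3 and submissive female 1 lay close together. As a description, the log2 difference between dominant and submissive females was 0.25 (standard error 0.0630). It was 0.18 in cages 1 and 2 and 0.31 in cages 3 and 4, and 0.17 to 0.29 with single libraries left out. Within cages the dominant female had the higher level in 4 of 4, by 0.11 to 0.48 on the log2 scale.

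In males Nlgn2 ran from 39.1 CPM (median 62.8) to 83.3 CPM in dominant mice and from 57.0 CPM (median 64.6) to 81.4 CPM in submissive mice. The dominant males held both the lowest library, dominant male 6, and the highest, dominant male 1, and the ranks overlapped. No difference by rank was called, with a log2 estimate of -0.075 (standard error 0.120, 95% interval -0.33 to 0.18, adjusted p = 1 in edgeR's quasi-likelihood test). The estimate was 0.013 without dominant male 6 and -0.16 without dominant male 1, whose cerebellar markers were low. Within cages the log2 difference ran from -0.72 in cage 6 to 0.52 in cage 1, and the dominant male was higher in 3 of 7. The coefficient of variation of Nlgn2 was 17.6% over males, larger than that of 96.7% of the genes with a mean of at least 5 CPM. Over females it was 12.8%, larger than that of 94.7% of such genes. Within ranks it was 22.6% in dominant and 12.8% in submissive males, and 10.7% in dominant and 7.28% in submissive females.

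Nlgn1 varied far less. In females it had 213.5, 213.7, 217.9 and 208.4 CPM in dominant mice 1 to 4 and 201.0, 217.7, 196.6 and 208.9 CPM in submissive mice 1 to 4, and the ranks overlapped. In males the level ran from 201.3 CPM (median 221.2) to 230.4 CPM in dominant mice and from 199.7 CPM (median 218.2) to 226.4 CPM in submissive mice. These ranges lay almost on top of each other. Rank gave a log2 estimate of 0.05 (standard error 0.0344) in females, as a description, and of 0.02 in males (standard error 0.0406, 95% interval -0.07 to 0.11, adjusted p = 1 in edgeR). The coefficient of variation was 4.91% over males.

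Nlgn3, whose product occurs at both excitatory and inhibitory synapses, lay between 76.0 and 91.05 CPM in dominant females and between 79.3 and 84.1 CPM in submissive females. The submissive females thus fell within the range of the dominant ones. Dominant males ran from 72.1 CPM (median 86.9) to 101.5 CPM and submissive males from 85.1 CPM (median 88.6) to 97.05 CPM. Both ends were dominant mice, again dominant males 6 and 1. For rank the log2 estimate was 0.04 (standard error 0.0465) in females, as a description, and -0.03 in males (standard error 0.0583, 95% interval -0.15 to 0.09, adjusted p = 1 in edgeR), where it was 0.011 without dominant male 6. Per kb, Nlgn3 had 1.74 ± 0.204 times the level of Nlgn2 (SD, n = 22), a ratio that ran from 1.43 in dominant female 4 to 2.37 in dominant male 6.

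Of the presynaptic genes, Nrxn3 set the tables and the male cages apart, while Nrxn2 had the larger coefficient of variation over males (12.6% against 8.63%). Dominant females 1 to 4 had 300.2, 289.8, 303.9 and 316.5 CPM and submissive females 1 to 4 had 282.9, 280.7, 268.4 and 276.0 CPM. Every dominant female lay above every submissive one. As a description, the log2 difference was 0.12 (standard error 0.0326), with 0.06 in cages 1 and 2 and 0.19 in cages 3 and 4. It was 0.07 once each library's trend of counts on exon length had been taken out. That trend moved with rank in females, with a slope of -0.0185 to 0.0025 log2 units per doubling of exon length in dominant and of -0.0338 to -0.0215 in submissive females, without overlap.

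For Nrxn3, dominant males ran from 288.2 CPM (median 367.8) to 391.6 CPM and submissive males from 329.1 CPM (median 371.9) to 405.8 CPM. The ranks overlapped, with dominant male 6 lowest and submissive male 1 highest. Rank was not called in males, at a log2 estimate of -0.04 (standard error 0.0630, 95% interval -0.17 to 0.10, adjusted p = 1 in edgeR), and the dominant male was higher in 2 of 7 cages. Without dominant male 6 the estimate was 0.009.

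The cage of a male, in contrast, went with its Nrxn3 level. Cage means were 393.5, 385.1, 369.8 and 378.6 CPM in cages 1 to 4 and 337.3, 308.7 and 343.7 CPM in cages 5 to 7. The 8 males of cages 1 to 4 had 367.8 to 405.8 CPM. The 6 males of cages 5 to 7 had 288.2 to 345.6 CPM, without overlap. This split of the cages was known from earlier results and is given as a description. The share of all genes without overlap at this split is not given here, so the gap is not read as particular to Nrxn3. The test over all 7 male cages called Nrxn3 (F = 9.82, adjusted p = 0.0134 in edgeR's quasi-likelihood F test with rank in the fit). It was the 1 of the 6 genes called, beside 5.89% of all 14737 genes tested. Over 13 alternative fits with edgeR or DESeq2 the adjusted p of Nrxn3 ran from 1.29e-05 to 0.556, and it missed the threshold in 2 of them, at 0.0778 without cage 6 and at 0.556 with the length trend taken out. The slope of the length trend was 0.0145 to 0.0459 in cages 1 to 4 and -0.0350 to 0.0024 in cages 5 to 7. Nlgn1 had an adjusted p of 0.160 over male cages, which was 0.0401 in edgeR with the length trend taken out and 0.30 at the highest over its alternatives in edgeR or DESeq2, and the other 4 genes were called in no alternative, with 0.367 as the lowest adjusted p in edgeR or DESeq2. Among females no such difference was called, with Nrxn3 means of 291.5, 285.2, 286.1 and 296.2 CPM in cages 1 to 4.

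**Figure D2:**
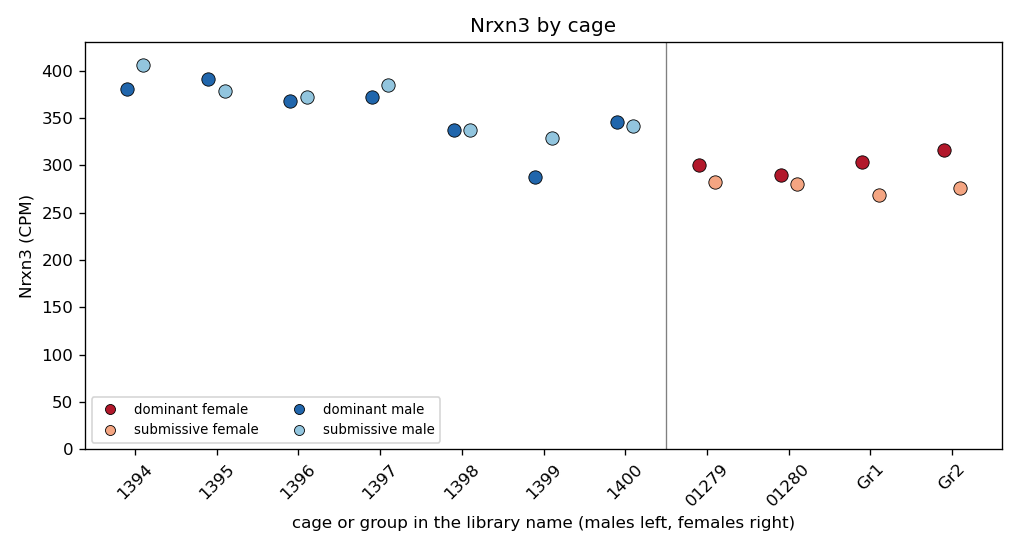
Nrxn3 in each mouse (CPM, axis from 0), with both mice of a cage side by side, 7 male cages at the left and 4 female cages at the right, labelled with the cage names of the libraries. Males of the first 4 cages sit at 367.8 to 405.8 CPM, males of the other 3 at 288.2 to 345.6 CPM and females at 268.4 to 316.5 CPM.

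Nrxn3 was lower in the table of the females, at 289.8 ± 16 CPM (SD, n = 8) against 359.5 ± 31 CPM (SD, n = 14) in that of the males. Of the 14 males, dominant male 6 alone fell within the female range. Females minus males gave a log2 difference of -0.32 (standard error 0.0455, adjusted p = 5.46e-06 in edgeR). This fit takes the 22 mice as independent, although males of a cage tended to deviate together (mean r 0.177). With the counts of both mice of a cage summed, 4 female against 7 male cages, the difference was -0.32 (standard error 0.0550, adjusted p = 0.000529 in edgeR). Over 29 alternative fits with edgeR or DESeq2 the adjusted p ran from 5.33e-10 to 0.000767, and the difference was -0.17 with the length trend taken out and -0.16 with that and cages summed. No other member was called in edgeR, so that 1 of 6 genes differed between the tables, beside 36.2% of the 15233 genes tested. No member had every female below every male, as 2.07% of the genes did.

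The other members differed less between the tables. Nlgn3 had a log2 difference of -0.10 (standard error 0.0448, 95% interval -0.19 to -0.01, adjusted p = 0.0860 in edgeR). It was called without dominant male 4 (adjusted p = 0.0492), without dominant male 6 (0.00835) and without dominant female 4 (0.0300), in a range of 0.00835 to 0.270 over its alternatives in edgeR or DESeq2. Nlgn1 had a log2 difference of -0.05, with a 95% interval of -0.11 to 0.01, and Gphn one of 0.03, with an interval of -0.03 to 0.09. For Nlgn2 the estimate was 0.02 (interval -0.16 to 0.20) and for Nrxn2 0.04 (interval -0.09 to 0.17). The estimates of Nlgn2 and Nrxn2 were -0.075 and -0.081 with the trend on GC content taken out. Of these 4 genes Nrxn2 alone was called in an alternative, with cages summed and the length trend taken out (0.12, adjusted p = 0.0459 in edgeR, in a range of 0.0459 to 0.979 over its alternatives).

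Nrxn2 had 130.9, 125.9, 137.1 and 148.8 CPM in dominant females 1 to 4 and 133.0, 120.1, 132.3 and 123.9 CPM in submissive females 1 to 4. The ranks overlapped, with dominant female 4 highest. In males the level ran from 92.6 CPM (median 128.4) to 145.5 CPM in dominant mice and from 116.7 CPM (median 129.7) to 154.3 CPM in submissive mice. Dominant male 6 was the lowest library and submissive male 4 the highest, and the ranks overlapped. The rank estimate was 0.09 (log2, standard error 0.0465) in females, as a description, and -0.08 in males (standard error 0.0855, 95% interval -0.26 to 0.10, adjusted p = 1 in edgeR). Per kb, Nrxn3 had 1.84 ± 0.297 times the level of Nrxn2 (SD, n = 22), from 1.43 times in submissive female 3 to 2.44 times in submissive male 1.

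Gphn, whose product also takes part in the synthesis of the molybdenum cofactor, was steady across libraries. Its level was 135.6, 127.1, 133.2 and 122.4 CPM in dominant females 1 to 4, and 127.6, 128.2, 127.0 and 126.6 CPM in submissive females 1 to 4. Dominant females 1 and 3 lay above the submissive ones, dominant female 4 below and dominant female 2 among them. In males it ran from 114.7 CPM (median 125.0) to 129.5 CPM in dominant mice and from 118.7 CPM (median 128.1) to 139.9 CPM in submissive mice. Dominant male 1 was the lowest and submissive male 1 the highest, and the ranks overlapped. A rank estimate of 0.02 (log2, standard error 0.0358) was found in females, as a description, and one of -0.06 in males (standard error 0.0384, 95% interval -0.14 to 0.02, adjusted p = 1 in edgeR). The coefficient of variation of Gphn was larger than that of 14.7% of the genes with a mean of at least 5 CPM in males. Its level per kb was 2.97 ± 0.566 times that of Nlgn2 (SD, n = 22), from 2.03 times in dominant male 1 to 4.72 times in dominant male 6.

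Rank was called for none of the 6 genes in males, that is 0 of 6 beside 0% of 14737 genes in edgeR. At an unadjusted p under 0.05 there were 194 genes, none of the 6 among them, and DESeq2 called 0. For the difference of the rank effects between the sexes, which shares the female contrast, 0 of 6 were called beside 0% of 15233 genes in edgeR, with 505 genes and none of the 6 at an unadjusted p under 0.05 and 0 called by DESeq2. Nlgn2 had the largest such estimate of the 6, at 0.33 on the log2 scale (95% interval -0.03 to 0.69, adjusted p = 0.999 in edgeR). Because this difference holds the female contrast in view at the choice, the estimate is given as a description and supports nothing. Over female cages 0 of 6 were called beside 0.0740% of 14865 genes in edgeR, with 759 genes, Nlgn2 among them, at an unadjusted p under 0.05, and 5 genes and none of the 6 called by DESeq2. For rank in females, the contrast in view at the choice, 0.0942% of the genes and 0 of the 6 were called in edgeR, of 1563 genes at an unadjusted p under 0.05, and DESeq2 called 79 genes, Nlgn2 and Nrxn3 among them. With cage as a block edgeR called 36 genes in place of 14. Nlgn2 and Nrxn3 had every dominant above every submissive female, 2 of 6 beside 3.38% of the genes, and nothing is read from these female counts.

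Nlgn2, Nlgn3 and Nrxn2 varied together from library to library. Dominant male 6 had the lowest level of each, and among males dominant male 1 and submissive male 4 had the highest. After subtraction of the mean of each table, Pearson's r of log2 CPM over 22 libraries was 0.95 for Nlgn2 with Nrxn2 (Spearman's rho 0.90), with 0.967 within the 14 males and 0.865 within the 8 females, and 0.118% of the 11823 genes compared had a higher r with Nlgn2. For Nlgn2 with Nlgn3 it was 0.92 (rho 0.81), with 0.974 within males and 0.705 within females. For Nlgn3 with Nrxn2 it was 0.90 (rho 0.81), with 0.925 within males and 0.766 within females. Without the 2 libraries farthest from the median the r of these pairs, in the same order, were 0.906, 0.836 and 0.825. Gphn had an r of -0.39 with Nlgn2 and Nlgn1 one of -0.04, while the r of 0.60 for Nrxn3 with Nlgn2 was 0.27 without those 2 libraries. For Nrxn3 with Nlgn2 r was 0.544 within males and 0.844 within females. It was 0.748 with the GC trend and 0.571 with the length trend taken out.

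These r are descriptions over libraries that share tables, cages and trends on base composition. The slope on GC content ran from -0.0875 to 0.0657 log2 units per 10 percentage points over the 22 libraries. With the GC trend taken out r was 0.945 for Nlgn2 with Nrxn2 and 0.863 for Nlgn2 with Nlgn3. Markers of cell types varied too, and their part in the shared variation was not tested. Granule cell markers summed to 41.7 CPM in dominant male 1, where Nlgn2 was highest, to 412.7 CPM in dominant female 4 and 397.4 CPM in submissive male 4, which followed. They summed to 636.5 CPM in dominant male 6, where Nlgn2 was lowest, and to 413.0 CPM in submissive female 2, the lowest female for Nlgn2. Astrocyte markers, like those of granule cells, were low in dominant male 1 (2682 CPM) and submissive male 4 (2811 CPM). These were the lowest sums among males, and dominant male 6 had the highest, 3477 CPM. Dominant male 5 and submissive male 7 came next among males for Nlgn2 (73.19 and 70.11 CPM). Their astrocyte sums were 3309 and 3373 CPM, above the male mean of 3204 CPM. Their granule cell sums were 286.4 and 495 CPM, below the male mean of 514.9 CPM. Submissive female 2, the lowest female for Nlgn2, had the lowest astrocyte sum of the females, 2910 CPM.

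**Figure D3:**
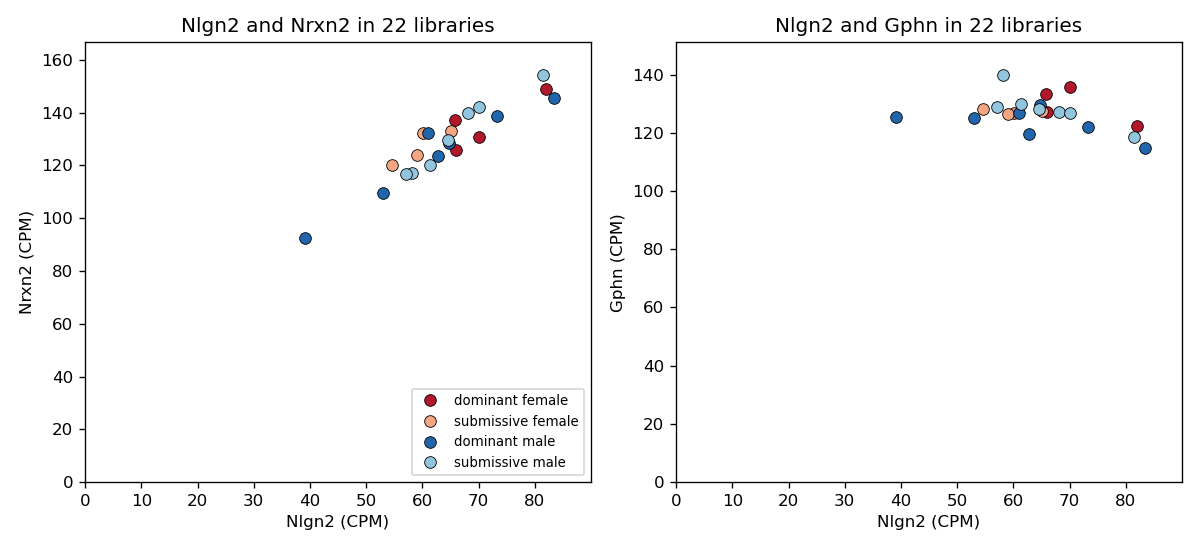
Nlgn2 against Nrxn2 (left) and against Gphn (right) in 22 libraries (CPM, both axes from 0, colour by group). Nrxn2 is at 92.6 CPM in dominant male 6 and 145.5 CPM in dominant male 1, the libraries with the lowest and highest Nlgn2 (39.1 and 83.3 CPM), while Gphn has 125.4 and 114.7 CPM in them.

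Genes most like each member over the 22 libraries were named by the same r. For Nlgn2 they were Syn1 (0.98), the gene of the synaptic vesicle protein synapsin I, Celsr2 (0.97) and Prrc2b (0.97), and for Nrxn2 they included Plec (0.97) and Prrc2b (0.97). These genes have a transcript GC content of 56.2% to 61.3%. Nlgn3 was most like Chd5 (0.95), Grik3 (0.94) and Slc6a17 (0.94), and Nrxn3 most like Cttnbp2 (0.96), Ylpm1 (0.96) and Whsc1l1 (0.96). For Nlgn1 the list was A830018L16Rik (0.86), Lrrc4c (0.85) and Dpy19l1 (0.84), and for Gphn Rasa1 (0.84), Lmbrd1 (0.80) and Mark3 (0.79).

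Windows at RefSeq starts of Nlgn2, Gphn and Nrxn3 are shown. They were picked because Nlgn2 varied most among libraries, Gphn stayed level and Nrxn3 went with cage and table. RefSeq promoters (GRCm38.p6, 300 bases around the start) matched 4 of the 6 genes, Nlgn1, Nlgn2, Nrxn3 and Gphn, and Nlgn3 and Nrxn2 had no entry. The GC box, searched as GGGCGG on both strands and printed in capitals, was found in 35.7% of all 32851 promoters. It occurred at 3 places in Nlgn2 (chr11:69837735-69838034, minus strand, 68.7% GC) and at 1 in Gphn (chr12:78226405-78226704, plus strand, 77.0% GC). The Nrxn3 entry that starts at the first exon base of the count tables (chr12:88794254-88794553, plus strand, 47.3% GC) does not hold these letters, and of its 2 further entries the one at chr12:88953140-88953439 does. The RefSeq start of Nlgn2, base 69837784, lies upstream of its exons in the count tables, which begin at base 69834849. For Nrxn3, GENCODE has a start at base 88722876, upstream of the window printed here. The printed Nrxn3 window may thus not be a promoter in use. Its base content and lack of a GC box are not set against Nlgn2 and Gphn. A match describes letters in the window, not a site in use.
Nlgn2: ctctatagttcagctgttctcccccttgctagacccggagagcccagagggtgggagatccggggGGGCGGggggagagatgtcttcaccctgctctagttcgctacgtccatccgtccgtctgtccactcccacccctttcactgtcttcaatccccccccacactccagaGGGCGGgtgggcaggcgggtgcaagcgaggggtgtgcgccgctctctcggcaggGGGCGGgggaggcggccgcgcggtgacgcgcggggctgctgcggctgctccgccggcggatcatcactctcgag
Gphn: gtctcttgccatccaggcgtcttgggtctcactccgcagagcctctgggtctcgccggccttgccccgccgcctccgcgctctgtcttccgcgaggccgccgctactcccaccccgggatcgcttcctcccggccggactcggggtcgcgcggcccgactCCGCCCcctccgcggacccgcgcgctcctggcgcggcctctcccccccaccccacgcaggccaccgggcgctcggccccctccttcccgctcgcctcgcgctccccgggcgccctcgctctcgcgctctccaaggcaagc
Nrxn3: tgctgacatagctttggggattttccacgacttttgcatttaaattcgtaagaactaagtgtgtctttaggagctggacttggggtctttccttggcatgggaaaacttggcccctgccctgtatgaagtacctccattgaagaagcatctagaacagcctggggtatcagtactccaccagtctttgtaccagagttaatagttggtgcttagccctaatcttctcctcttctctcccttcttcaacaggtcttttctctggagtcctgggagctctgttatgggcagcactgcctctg

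Genes that work with the 6 were followed as lists. Among 25 partner genes of neurexins and neuroligins, 0 were called for rank in males (edgeR, 0 at an unadjusted p under 0.05 and 0 by DESeq2), with a median log2 difference of -0.001 against -0.002 over all genes. Of the 25, 13 were called between the tables, 7 higher and 6 lower in females, beside 36.2% of all genes. They included Igsf21, a neurexin partner at inhibitory synapses, with a log2 difference of 0.52 (adjusted p = 3.7e-07 in edgeR), and Clstn3, with -0.19 (adjusted p = 5.56e-06 in edgeR). Of 26 other synaptic adhesion genes 10 were called between the tables, 4 higher and 6 lower and thus near the share of all genes, among them Ntrk3 at -0.30 (adjusted p = 3.18e-05 in edgeR). Over male cages 2 genes of each of these lists were called in edgeR, beside 5.89% of all genes, C1ql3 (adjusted p = 0.0326) and Mdga2, whose product binds neuroligins (0.0369), and Lrrc4b (0.0205) and Ntrk3 (0.0219).

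Around gephyrin, 12 of 20 genes of the inhibitory postsynapse were called between the tables, 8 higher and 4 lower in females. For this and the lists below the share of all genes called is again 36.2%. Gabrb1, a subunit of the GABA-A receptor, had a log2 difference of -0.37 (adjusted p = 1.08e-07 in edgeR) and Dynll2, whose product binds gephyrin, one of 0.45 (adjusted p = 1.01e-08 in edgeR). Of 16 excitatory scaffold genes 8 were called, 4 in each direction, with Shank3 at 1.02 and Dlgap3 at 0.79, and of 12 partners of the neurexin tail 6, with 4 higher and 2 lower. Of 9 genes for neurexin splicing and shedding 5 were called, 1 higher and 4 lower, among them Nova1 at -0.30. Xdh (0.41) and Aox1 (-0.22) were called of 7 genes (of 8 listed) tied to the molybdenum cofactor, and Slc6a11 (-0.49) was among the genes called of 5 for GABA synthesis and transport. The medians of these 8 lists between the tables lay from -0.09 to 0.05, against 0.00 over all genes.

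None of the 8 lists had a gene called for rank in males in edgeR, and none of their genes was at an unadjusted p under 0.05 there. For the difference of the rank effects the lists again had 0 calls in edgeR, with 1 partner gene and 1 inhibitory gene at an unadjusted p under 0.05, and DESeq2 called 0 genes of the tables for either. Beyond the 4 genes above, Dlgap3 was called over male cages (adjusted p = 0.0236 in edgeR).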

How the data were processed

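Right hemispheres of 22 mice were used. The authors trimmed the reads of stranded, ribosome-depleted libraries with cutadapt 1.15 and bbduk, aligned them to mm10 using STAR 2.6.0a and deposited raw counts per gene from featureCounts 1.6.2. The strand setting and the treatment of reads with several matches are not given in the sources used here. From these counts, genes were filtered with edgeR 4.0.16 in R 4.3.3 (at least 10 counts in the smaller group and 15 in total), scaled with TMM and tested with the quasi-likelihood test, with Benjamini-Hochberg adjustment over all genes kept and a threshold of 0.05. Rank was tested within each sex, the tables and the difference of rank effects over 4 group means, and cages with rank in the fit. Log2 CPM used a prior count of 2. GC content came from GENCODE for 98.3% of the genes. Intervals are at 95%, and the lowest count of any of the 6 genes was 561.

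Cage is shared by same-numbered mice according to the library names, and the study sacrificed cage mates together. Correlating their deviations from group means gave 0.177 on average in males (other pairs -0.0293) and 0.0239 in females (other pairs -0.00798). The 54 pairs of libraries within groups differed by more than counting noise (mean chi-square per gene 1.81 to 16.6).

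The 6 genes and the lists of other genes were chosen with earlier results of these data known. Candidates for naming were the 6 genes, the genes called in a list if 4 or fewer, otherwise the 2 with the smallest p in each direction, the smallest p in each direction where none was called, and up to 3 genes most like each member. Alternatives were DESeq2 1.42.0, its size factors, no filter, cage as a block, removal of loess trends (span 0.3) on exon length or, chosen after seeing the data, on GC content, all libraries in a single fit, parts of the cages, cages without rank in the fit, counts summed per cage between the tables (also chosen after seeing the data), and leaving out each library or cage.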

Additional observations from a re-analysis of the deposited data

Results flagged for a closer look

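Values of the 6 genes and 11 marker lists in 4 groups gave 68 sets, and in 2 of them, both of marker lists, a library lay far from the rest of its group. Chance gives about 1 in 20 sets. The Purkinje cell markers summed to 1491 CPM in dominant male 1, with the next dominant male at 2377 CPM. The pituitary markers summed to 22.7 CPM in submissive female 3, with the next submissive female at 2.46 CPM.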

How the results depend on the processing

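For rank in females edgeR called 14 genes. DESeq2 called 79, edgeR without filter 84, with the length trend removed 0, with the GC trend removed 29, with the replicate block 36, with block and length trend 8, with block and GC trend 47, with all 22 libraries in a single fit 0, in cages 1 and 2 alone 5 and in cages 3 and 4 alone 120. Leaving out single libraries gave 0 to 77 (7, 77, 1 and 3 without dominant females 1 to 4, and 0, 27, 0 and 3 without submissive females 1 to 4). Over male cages the 868 genes called became 547 with the length trend removed, and 375 to 1841 without single cages (1841 without cage 1, 482 without cage 3, 474 without cage 5, 375 without cage 6 and 423 without cage 7). Over female cages the 11 became 5 with DESeq2, 99 without filter, 4 without rank in the fit, and 2 to 31 without single cages (31 without cage 2 and 2 without cage 3). The count stayed at 0 for rank in males and for the difference of rank effects and at 4353 to 5773 between the tables (4917 to 5773 without single libraries) in all alternatives. The causes were not tested.

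Of 606 alternative estimates for the 6 genes 19 turned direction, none of them called, and 9 came to pass the threshold. The latter were 3 of Nlgn3 and 1 of Nrxn2 between the tables and 3 of Nlgn2 and 2 of Nrxn3 for rank in females, which are not read. For rank in females Nlgn3 was -0.044 in cages 1 and 2, and with single libraries left out -0.003 (without dominant female 4) to 0.086, and Gphn -0.002 (without dominant female 1) to 0.047. For rank in males, with single libraries left out, Nlgn2 ran from -0.157 to 0.013, Nlgn3 from -0.07 to 0.011 and Nrxn3 from -0.061 to 0.009, each above 0 without dominant male 6 alone. The difference of rank effects of Nlgn1 was -0.018 with the length trend and -0.002 with the GC trend removed. Between the tables Nlgn1 was 0.009 with the length trend removed and 0.014 with cages summed as well, and Nlgn2 was -0.075 and Nrxn2 -0.081 with the GC trend removed. With single libraries left out, Nlgn2 ran from -0.035 to 0.05, with -0.008 without dominant male 4, -0.035 without dominant male 6, -0.005 without submissive male 1, -0.007 without submissive male 5, -0.03 without dominant female 4 and -0.014 without submissive female 1, and Nrxn2 from -0.004 (without dominant male 6) to 0.048. The causes of these turns were not tested.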
